A study of Homo sapiens with 4 samples.

Results

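RBFOX2 encodes an RNA binding protein that regulates alternative splicing, and the gene is itself alternatively spliced. The splicing events analysed here are all those listed under the gene symbol RBFOX2 in the 5 deposited tables of alternative splicing, 17 of 121269 events. Of these, 11 of 84930 are skipped (cassette) exon events, 3 of 27459 are events of mutually exclusive exons and 3 of 4387 are alternative 3′ splice sites. RBFOX2 has 0 entries among the 3203 alternative 5′ splice sites and 0 among the 1290 retained introns. The 17 events fall on 11 distinct regions of the gene, because 1 exon can be listed with several neighbours.

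The data are RNA-seq of U87MG cells, a glioblastoma cell line, transfected with oligonucleotide at 2.5 µM. There were 2 libraries of cells given RBFOXi, a decoy oligonucleotide that carries the RBFOX1/2 binding motif, and 2 libraries of cells given the scrambled control SCRM. By the labels, RBFOXi replicate 1 received the oligonucleotide with Cy5, a fluorescent dye, attached, and no dye is mentioned for replicate 2 or for SCRM. All 4 libraries come from 1 cell line and 1 dose.

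Proteins of the RBFOX family bind UGCAUG in introns through a single RNA recognition motif (RRM). They commonly promote inclusion of an exon when bound in the downstream intron and skipping when bound in the upstream intron. The RBFOX genes also carry this motif beside their own exons, and skipping of an exon that encodes part of the RRM is a known form of autoregulation, since the shorter protein binds RNA poorly. The comparison of RBFOXi with SCRM therefore asks whether the splicing of RBFOX2 itself shifted when the decoy was present.

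RBFOX2 lies on the minus strand of chromosome 22, and in GENCODE mapped to hg19 it spans chr22:36134783-36424872 with 20 transcripts. The 7 cassette exons are, from 5′ to 3′, 51, 225, 54, 93, 93, 40 and 32 nt long. Each of them is wholly coding in at least 1 transcript. The lengths of the first 5 are multiples of 3, while those of the 40 nt and 32 nt exons are not. The first 93 nt exon, at chr22:36164304-36164396, is in 15 of the 20 transcripts and belongs to the part of the gene that encodes the RRM. The 40 nt exon is in 11 transcripts and the 32 nt exon in 2.

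The first 93 nt exon is shown because its splice sites lie beside UGCAUG. In the stretch below, read on the strand of the gene at chr22:36164264-36164436, the exon runs from base 41 to base 133 and capitals mark each copy of the motif, written with T as in the genome.

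first 93 nt exon: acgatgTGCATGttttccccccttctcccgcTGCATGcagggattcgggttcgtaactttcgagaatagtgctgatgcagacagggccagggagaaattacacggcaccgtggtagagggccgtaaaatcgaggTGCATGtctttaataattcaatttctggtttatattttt

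Upstream of this exon, copies of UGCAUG ended 28 nt and 3 nt before the first exon base, and a copy 145 nt away lies outside the stretch printed. Downstream, a copy started at the second base of the intron. The search used UGCAUG on the strand of the gene only, in up to 300 nt of each neighbouring intron. Of 30634 tested cassette exons, 8.16% held the motif in the upstream window and 8.36% in the downstream window. Only 0.748% held it in both, and 0.049% (15 exons) held 4 or more copies, the number found beside the first 93 nt exon. A copy within 10 nt of the exon on both sides was found for 1 of the 30634, which is this RBFOX2 exon.

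Of the 7 cassette exons of RBFOX2, 4 had UGCAUG within 300 nt, with 7 copies in all. The other 3 copies are shown with 15 nt on each side and the motif in capitals. The copy beside the 225 nt exon started 33 nt into the downstream intron, the copy beside the 40 nt exon ended 77 nt upstream of it, and the copy beside the 32 nt exon started 72 nt into the downstream intron.

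225 nt exon, downstream, chr22:36205774-36205809: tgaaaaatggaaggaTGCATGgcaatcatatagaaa
40 nt exon, upstream, chr22:36152254-36152289: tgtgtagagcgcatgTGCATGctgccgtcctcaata
32 nt exon, downstream, chr22:36146381-36146416: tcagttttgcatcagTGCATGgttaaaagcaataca

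The 51 nt, 54 nt and second 93 nt exons had 0 copies in their windows, and the upstream intron of the second 93 nt exon is only 120 nt long. A match is a description of the sequence and does not show binding.

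**Figure D1:**
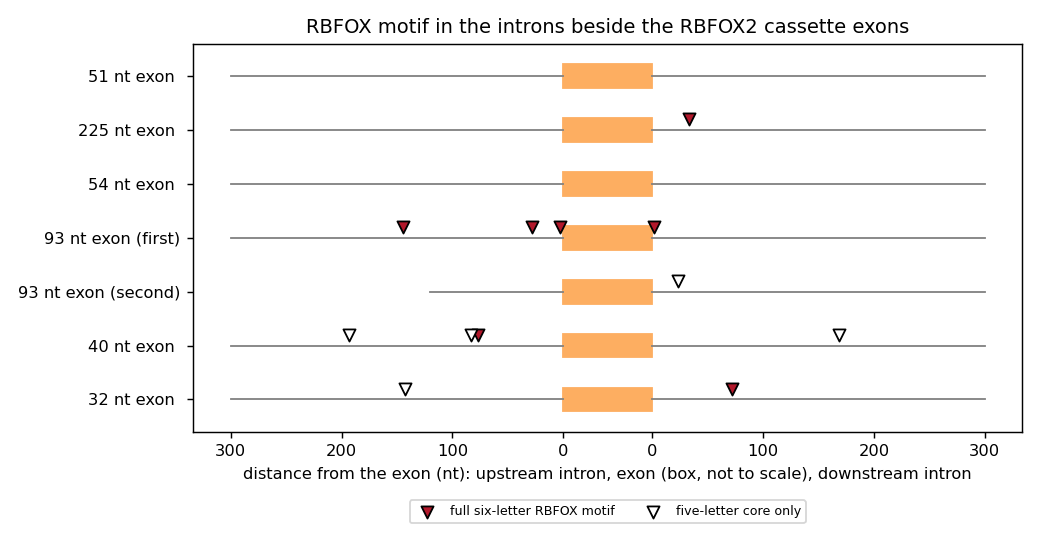
Copies of the RBFOX motif within 300 nt of the 7 RBFOX2 cassette exons, which are listed from 5′ to 3′. The x axis gives the distance from the exon in nt, boxes are exons (not to scale), lines are introns, filled triangles are full six-letter motifs and open triangles are the five-letter core GCAUG alone. The first 93 nt exon has 4 full motifs, 2 of them next to its splice sites.

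Before the splicing values, the libraries themselves differ. SCRM replicate 1 held fewer RBFOX2 reads than the other 3 libraries. Inclusion counts summed over the RBFOX2 cassette exons with a mean of at least 50 counts were 3225 and 3943 with RBFOXi, 936 in SCRM replicate 1 and 5318 in SCRM replicate 2. Per 1000000 counts over all skipped exon events, these are 25.8, 29.0, 8.18 and 39.3. The ratio of SCRM replicate 1 to replicate 2 was 0.208, against 0.892 for the same ratio in RBFOXi. On the log2 scale the SCRM ratio was -2.26, and 12.7% of 9915 genes had a lower one, with a median of -0.48.

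The lower count of RBFOX2 in SCRM replicate 1 was not the same at all exons. The ratio of SCRM replicate 1 to replicate 2 was 0.202, 0.173, 0.233, 0.217 and 0.215 at the 51, 225, 54, first 93 and second 93 nt exons, and 0.433 at the 40 nt exon. It was therefore similar at 5 exons and higher at the 40 nt exon, the last of the 6, with no graded rise along the gene. On the log2 scale, the ratio at the 51 nt exon minus that at the 40 nt exon was -1.09, a value that rests on the 40 nt exon, and the same difference between the RBFOXi replicates was 0.10. Across 4224 genes with at least 5 such exons, the median difference in SCRM was -1.24, and 95.3% of genes were below 0. In RBFOXi the median was 0.00. A lower ratio at the first than at the last such exon was thus seen in most genes. Its part in the splicing results was not tested, and delta PSI with 1 library left out is given where it changed by over 1.5 times.

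The exons of RBFOX2 can be compared per length. As inclusion counts per 1000000 counts and per 1000 positions, the first 93 nt exon had the highest level in every library, at 47.5 and 53.2 with RBFOXi and 16.2 and 74.7 with SCRM. In the events used, the 51 nt exon had the lowest level of the 6 well covered exons in every library. It was at 24.6 and 25.1 with RBFOXi and 6.26 and 30.9 with SCRM. The 32 nt exon was near 0 everywhere, with 0 inclusion counts in 3 libraries and 1 in SCRM replicate 2.

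The order of the exons in between depended on the library. The 40 nt exon was the second lowest of the 6 in both RBFOXi libraries (28.7 and 31.4) and in SCRM replicate 2 (31.2), but the second highest in SCRM replicate 1 (13.5). The 225 nt exon was at 36.0 and 39.6 with RBFOXi and at 10.3 and 59.6 with SCRM. For the 54 nt exon the levels were 39.9, 48.7, 12.7 and 54.4 in the same order of libraries. The second 93 nt exon was at 29.6, 35.0, 9.79 and 45.6.

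The RBFOXi libraries lay between the SCRM libraries in the summed level of RBFOX2, so the groups overlapped and no difference in level is reported. The ratio of the RBFOXi mean to the SCRM mean was 1.15, and to SCRM replicate 2 alone it was 0.697. In bulk RNA, fewer cells with the transcript and less transcript per cell cannot be told apart.

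**Figure D2:**
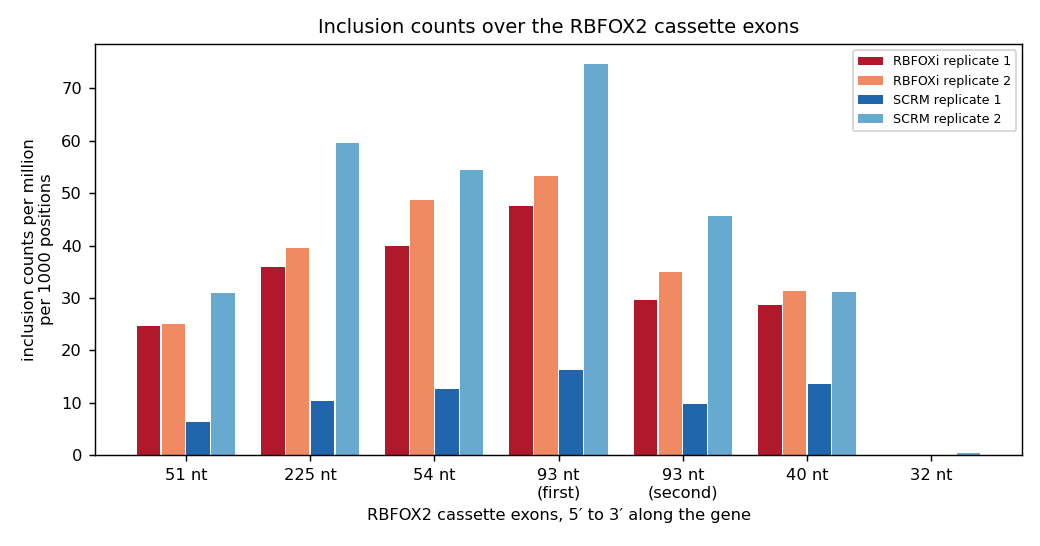
Inclusion counts over the 7 RBFOX2 cassette exons, ordered from 5′ to 3′, per 1000000 skipped exon counts and per 1000 positions of effective length, with 1 bar for each library. Each exon is shown by its event with the largest mean count. SCRM replicate 1 is the lowest library at the 6 exons from 51 to 40 nt. Its ratio to SCRM replicate 2 is 0.173 to 0.233 at the first 5 exons and 0.433 at the 40 nt exon.

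Splicing was measured as the proportion spliced in (PSI, from 0 for skipping to 1 for inclusion), computed from the inclusion and skipping counts, each divided by its effective length. Delta PSI is the RBFOXi mean less the SCRM mean. A call needed an adjusted p-value below 0.05 from limma, fitted to the log2 odds of inclusion over all events of the type, and a delta PSI of 0.1 or more in either direction. Of the 17 RBFOX2 events, 9 passed the count filter, in 8 of the 11 regions. limma called 0 of the 9, and 0 had an unadjusted p-value under 0.05. Across all tested events, limma called 0.0682% of 39615 skipped exon events, 0% of 26176 events of mutually exclusive exons and 0% of 3009 alternative 3′ splice sites. An unadjusted p-value under 0.05 was seen in 3.61%, 1.51% and 3.32% of them. A quasi-binomial F test called 0 of the 9 too, with an unadjusted p-value under 0.05 for 1. Fisher's exact test, run on counts summed over replicates, called 0 with unadjusted p-values under 0.05 for 3. The largest delta PSI of the 9 was 0.0558 in either direction, under the minimum of 0.1. None of these tests could therefore have called an RBFOX2 event. The groups did not overlap in PSI in 0 of the 4 cassette exon events, against 30.8% of all those tested.

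The first 93 nt exon, flanked by UGCAUG at both splice sites, was included in nearly all transcripts of both groups. Its main event, between the 54 nt and 61 nt exons, had 0 skipping against 599 inclusion counts in RBFOXi replicate 1 and 2 against 731 in replicate 2. SCRM replicate 1 had 0 against 187 and SCRM replicate 2 had 4 against 1020. PSI was 1.0 and 0.982 with RBFOXi and 1.0 and 0.974 with SCRM, so the groups overlapped. Only 15 positions of effective length stand behind the skipped form, so each skipping read weighs heavily in this PSI. The 0 of 599 counts in RBFOXi replicate 1 allows a skipping share of the counts of up to 0.501%, and the 0 of 187 in SCRM replicate 1 up to 1.6%, for counting error only. These are shares of raw counts. With effective lengths of 101 for inclusion and 15 for skipping, the limits on the PSI scale are looser.

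For this exon, delta PSI was 0.00382 and the difference in log2 odds was 1.02, with a 95% interval from -1.63 to 3.67 (limma, adjusted p = 1.0). The interval is wide because the skipped form has only 6 counts over the 4 libraries. It includes the smallest absolute difference among the 27 called skipped exon events, 2.09. Where skipping is 0, the log2 odds depend on depth, because 0.5 was added to each count. The 0 of 599 and the 0 of 187 thus give different log2 odds at the same PSI of 1.0. The difference of 1.02 is therefore not a measure of splicing alone. Without SCRM replicate 1, delta PSI was 0.0167, without RBFOXi replicate 1 it was -0.00523 and without RBFOXi replicate 2 it was 0.0129 (limma, adjusted p = 0.999 to 1.0). A second event on the same exon, between the 144 nt and 61 nt exons, had 0, 1, 0 and 0 skipping counts in RBFOXi replicates 1 and 2 and SCRM replicates 1 and 2, and was not tested.

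In the other genes, the cassette exons most like it in log2 odds over the 4 libraries were in SLC7A6, BRAP, IGHMBP2, ZNF143 and FBXO9. Their root mean square differences from the RBFOX2 exon were 0.146, 0.152, 0.189, 0.2 and 0.213 in log2 units. All 5 were exons with a PSI of at least 0.975 in every library, which follows from how they were chosen.

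The 40 nt exon, whose length would shift the reading frame when skipped, was the RBFOX2 cassette exon with the most skipping among those tested. It is shown with 20 nt of each intron and the exon in capitals, at chr22:36152132-36152211.

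40 nt exon: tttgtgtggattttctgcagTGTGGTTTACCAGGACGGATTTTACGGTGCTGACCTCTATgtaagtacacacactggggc

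Its inclusion and skipping counts were 222 and 24 in RBFOXi replicate 1, 265 and 40 in RBFOXi replicate 2, 96 and 13 in SCRM replicate 1, and 262 and 80 in SCRM replicate 2. PSI was 0.924 and 0.898 with RBFOXi (0.911 ± 0.019, SD, n = 2) and 0.907 and 0.812 with SCRM (0.86 ± 0.067, SD, n = 2). SCRM replicate 2 was the low library, and SCRM replicate 1 lay between the RBFOXi libraries. Delta PSI was 0.0512 and the difference in log2 odds was 0.68, with a 95% interval from -0.40 to 1.75 (limma, adjusted p = 1.0). The upper end of this interval is under the smallest called difference of 2.09. That value depends on which events limma could call and is not a size that a change must reach. Fisher's exact test on summed counts, which ignores the spread between replicates, gave an adjusted p of 0.00677, but delta PSI was under the minimum of 0.1.

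The value for the 40 nt exon rested on which SCRM library was used. Without SCRM replicate 1, delta PSI was 0.0986 (limma, adjusted p = 0.999), and this was then the 1 cassette exon event of the 4 with an unadjusted p-value under 0.05. Without SCRM replicate 2 it was 0.00388 (limma, adjusted p = 0.977).

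The other 2 tested cassette exons, both encoding stretches before the RRM, were also nearly always included between the neighbours of their events. GENCODE lists the 51 nt exon in 5 of the 20 transcripts and the 225 nt exon in 18. The 51 nt event lies between a 298 nt exon and the 225 nt exon. Transcripts that reach the 225 nt exon from a 392 nt exon do not enter this event. The PSI of the 51 nt exon is therefore not a share of all RBFOX2 transcripts. The 51 nt exon, at chr22:36334895-36334945, had 0 and 7 skipping counts with RBFOXi against 270 and 301 inclusion counts, and 0 and 3 with SCRM against 63 and 368. Its PSI was 1.0, 0.977, 1.0 and 0.992 in RBFOXi replicates 1 and 2 and SCRM replicates 1 and 2. In both groups replicate 2 held the skipping reads. Delta PSI was -0.00749 while the log2 odds differed by 0.35, with an interval from -2.42 to 3.12 (limma, adjusted p = 1.0). The mean and the fitted odds thus differed in sign. Replicate 1 of each group had 0 skipping counts, so its log2 odds depend on depth, with 270 inclusion counts for RBFOXi and 63 for SCRM. Delta PSI was -0.0191 without RBFOXi replicate 1, -0.00335 without SCRM replicate 1 and -0.0116 without SCRM replicate 2.

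The 225 nt exon, at chr22:36205827-36206051, is listed in 4 events that differ in their neighbours. Over the 4 events, skipping counts ranged from 0 to 5 in a library, against 268 to 2392 inclusion counts. The tested event lies between the 51 nt and 144 nt exons, with PSI of 0.977, 1.0, 1.0 and 1.0 in the same order of libraries. All 5 of its skipping counts were in RBFOXi replicate 1. Delta PSI was -0.0115 and the log2 odds differed by -1.06, with an interval from -4.21 to 2.10 (limma, adjusted p = 1.0). Delta PSI was -0.0231 without RBFOXi replicate 2 (limma, adjusted p = 1.0) and -0.00203 as a plain share of counts. The other 3 events had 1 or 2 skipping counts in all and were not tested.

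The 3 remaining cassette exons did not pass the filter. The 54 nt and second 93 nt exons each had 1 skipping count in total, in RBFOXi replicate 2, against 90 to 456 and 149 to 820 inclusion counts per library. The 32 nt exon showed the opposite pattern, with 85, 116, 34 and 80 skipping counts and 0, 0, 0 and 1 inclusion counts in the same order of libraries. It was therefore almost never included in these cells, in either group.

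**Figure D3:**
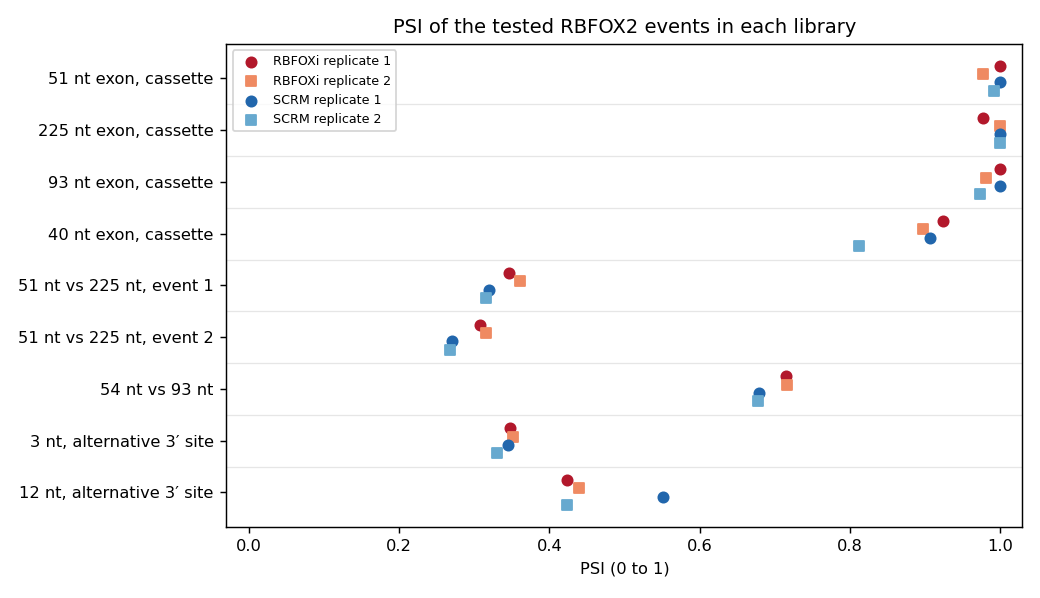
PSI (x axis, 0 to 1) of the 9 tested RBFOX2 events in each of the 4 libraries, with the events of mutually exclusive exons giving the share of the 51 nt or 54 nt exon and the alternative 3′ sites that of the longer form. The 40 nt exon spans 0.812 to 0.924, and the 12 nt site has 1 library, SCRM replicate 1, at 0.551 against 0.423 to 0.44 in the others.

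Among the alternative 3′ splice sites, 2 of 3 events were tested. The first adds 3 nt at the 5′ end of an exon of 144 nt, giving 147 nt at chr22:36177647-36177793. The stretch around the tandem sites, chr22:36177771-36177813, has the optional 3 nt in capitals. Both sites end in AG, the usual end of an intron.

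3 nt site: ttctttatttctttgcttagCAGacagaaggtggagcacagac

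Both forms were common in all 4 libraries. Counts of the longer and the shorter form were 238 and 446 in RBFOXi replicate 1, 280 and 515 in RBFOXi replicate 2, 70 and 133 in SCRM replicate 1, and 392 and 795 in SCRM replicate 2. The share of the longer form was 0.348 and 0.352 with RBFOXi (0.35 ± 0.003, SD, n = 2) and 0.345 and 0.33 with SCRM (0.338 ± 0.0103, SD, n = 2). The groups did not overlap, which was so for 30.9% of all tested events of this type. Delta PSI was 0.0125 and the log2 odds differed by 0.08, with an interval from -0.36 to 0.51 (limma, adjusted p = 0.999). Delta PSI was 0.0198 without SCRM replicate 1, 0.00525 without SCRM replicate 2 and 0.00491 with the log2 odds centred in each library (limma, adjusted p = 0.982 to 0.997). A second event at the same site, with a 392 nt exon upstream, had 0 to 2 counts per library and was not tested.

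The second site adds 12 nt to an exon of 133 nt, giving 145 nt at chr22:36155935-36156079. The stretch at chr22:36156048-36156099 has the 12 nt in capitals.

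12 nt site: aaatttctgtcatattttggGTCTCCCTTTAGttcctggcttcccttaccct

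The intron before the longer form ends in GG, not AG. Of 3009 tested alternative 3′ sites, 99.1% had AG before the longer form and 5 (0.166%) had GG. GENCODE lists the 145 nt exon in 5 transcripts and the 133 nt exon in 10. UGCAUG ended 183 nt and 118 nt upstream of the longer exon.

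Counts of the 145 nt and 133 nt forms were 179 and 231 in RBFOXi replicate 1, 229 and 275 in RBFOXi replicate 2, 74 and 57 in SCRM replicate 1, and 291 and 374 in SCRM replicate 2. The share of the 145 nt form was 0.423 and 0.44 with RBFOXi (0.432 ± 0.0125, SD, n = 2) and 0.551 and 0.424 with SCRM (0.487 ± 0.09, SD, n = 2). SCRM replicate 1 was high, and the other 3 libraries lay close together. Delta PSI was -0.0558 and the log2 odds differed by -0.32, with an interval from -0.91 to 0.27 (limma, adjusted p = 0.999). Without SCRM replicate 1, delta PSI was 0.00783 (limma, adjusted p = 0.997), and without SCRM replicate 2 it was -0.119 (limma, adjusted p = 0.427).

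The 3 events of mutually exclusive exons compare the 51 nt with the 225 nt exon (2 events that differ in the 3′ neighbour) and the 54 nt with the first 93 nt exon. All 4 exons were included almost fully when taken as cassette exons. The counts overlap with the cassette events. For the 54 nt against the 93 nt exon, the counts of 309, 411, 90 and 456 were those of the 54 nt cassette exon, and the counts of 278, 367, 96 and 489 were those of the 93 nt exon between the 144 nt and 61 nt exons. Reads that join the 51 nt exon directly to the 144 nt exon, which are the skipping reads of the 225 nt exon, came to 5, 0, 0 and 0. The values below are therefore shares of length-corrected counts on the exons, not a choice between them within a transcript. The 225 nt exon is also listed with a 392 nt exon upstream, in events without the 51 nt exon. Its counts can thus include transcripts that lack the 51 nt exon. The part of such transcripts in the share of the 51 nt exon was not tested.

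The share of the 54 nt exon against the 93 nt exon was 0.715 and 0.717 with RBFOXi (0.716 ± 0.00108, SD, n = 2) and 0.679 and 0.678 with SCRM (0.679 ± 0.000822, SD, n = 2). The share of the 51 nt against the 225 nt exon was 0.307 and 0.315 with RBFOXi and 0.270 and 0.267 with SCRM in the event with the 144 nt exon. In the event with the 147 nt exon it was 0.346 and 0.361 against 0.319 and 0.316. RBFOXi was above SCRM without overlap in 3 of the 3 events, which share exons and reads, against no overlap in 24.4% of all tested events of this type.

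These shifts were larger than the spread between the replicates of RBFOX2, but limma, which draws on the spread of all events of the type, did not call them. Each shift was also under the delta PSI minimum of 0.1, so no test could have called it. Delta PSI was 0.0373 for the 54 nt exon, with a log2 odds difference of 0.25 and an interval from -0.20 to 0.71 (limma, adjusted p = 1.0). For the 51 nt exon the values were 0.0425, 0.29 and -0.20 to 0.78 (limma, adjusted p = 1.0), and 0.0359, 0.23 and -0.27 to 0.72 in the other event (limma, adjusted p = 1.0). Fisher's exact test on summed counts gave unadjusted p-values under 0.05 for 2 of the 3, with a smallest adjusted p of 0.118.

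**Figure D4:**
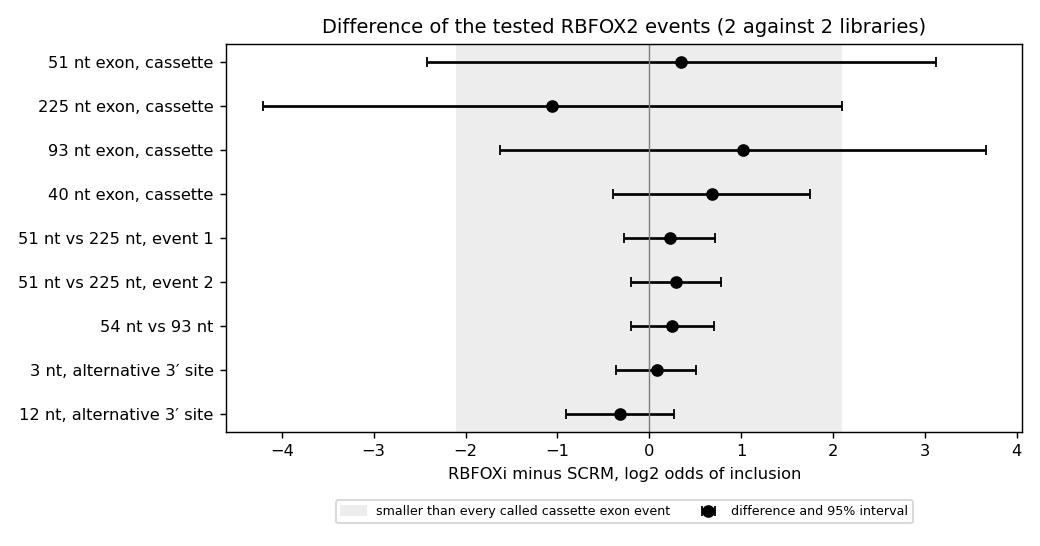
Difference between RBFOXi and SCRM in the log2 odds of inclusion (x axis) for the 9 tested RBFOX2 events, with points for the limma estimate and bars for its 95% interval. The grey band spans differences smaller than 2.09, the smallest among the 27 called skipped exon events, and all 9 intervals include 0. The band is not a size that a change must reach. No events of mutually exclusive exons or alternative 3′ sites were called, so it gives no scale for those.

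RBFOX2 works in a complex of splicing regulators known as LASR, which includes HNRNPM, an RNA binding protein that also controls exon choice. For 5 genes of this complex (HNRNPM, HNRNPH1, HNRNPC, ILF2 and DDX5) the tables used here hold 140 events, of which 90 were tested (39 skipped exon events, 44 of mutually exclusive exons, 3 alternative 3′ sites, 3 alternative 5′ sites and 1 retained intron). limma called 0 of them higher and 0 lower. Over all genes it also called 0% of 2281 alternative 5′ splice sites and 0% of 1034 retained introns. An unadjusted p-value under 0.05 was seen for 2 of the 90, 1 skipped exon event and 1 of mutually exclusive exons, both in HNRNPM. Over all genes the shares at that level were 3.59% for alternative 5′ splice sites and 1.74% for retained introns, beside those given above for the other types. HNRNPUL2 and MATR3 of the same complex, and the paralogs RBFOX1 and RBFOX3, were not analysed here.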

How the data were processed

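Reads of 100 bp from both ends were aligned by the authors to unique positions of hg19 (STAR 2.4.2a), and rMATS 3.0.9 with UCSC known genes gave the event tables. The deposited values are raw counts of inclusion and skipping reads per library, on the alternative region and its junctions, and the effective length of each form. Deposited p-values, FDR and inclusion levels were not used. The study describes the 2 libraries of each group as independent biological replicates.

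Counts summed over skipped exon events came to 114415530 to 136097319 per library, and a read can count in several events. PSI was computed from counts divided by effective lengths. limma 3.58.1 (R 4.3.3) was run on log2 odds (0.5 added to each count) with condition as the only term and a variance trend over event information, with Benjamini-Hochberg adjustment per event type. Tested events had 5 counts in every library, a mean of 20 and 4 counts of each form. Intervals are at 95%. The fit was also run on simulated data, in which events with nearly full inclusion were left unchanged. That run does not cover a change at such exons, and its results are not given here.

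Every RBFOX2 region with a tested event is named, by the tested event with the largest mean count. The gene and the lists were chosen with earlier results of these data known, and 1 gene of the list is not reported here. Sequences are from GRCh37 (hg19) and exons from GENCODE 44 lifted to it. Python 3.11.15, numpy 2.4.6, pandas 2.3.3 and matplotlib 3.10.9 were used. Alternatives covered the test, pseudocount, filter, scaling, delta PSI minimum, definition of PSI, replicate number as a block and each library left out.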

Additional observations from a re-analysis of the deposited data

How the results depend on the processing

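The count of called RBFOX2 events was 0 for each event type under all 15 alternatives run, the fits without 1 replicate included (range 0 to 0). RBFOX2 has 0 alternative 5′ splice sites and 0 retained introns, so their counts were fixed at 0. For the 9 tested events, the largest delta PSI as reported was 0.0558 in either direction. With a minimum of 0.1, a change of test, pseudocount, filter or block could not make a call there. Such a change leaves delta PSI as it is, so those values could not change sign. Only centring, plain shares, a library left out or a median over several events could move it. Of 109 alternative values of delta PSI, 107 kept their sign and 2 changed sign. The 12 nt site gave 0.00783 without SCRM replicate 1, and the first 93 nt exon gave -0.00523 without RBFOXi replicate 1, which has 0 skipping counts there. Over the fits without 1 library, the 12 nt site ranged from -0.119 to 0.00783 and the first 93 nt exon from -0.00523 to 0.0167. The 51 nt exon without RBFOXi replicate 2, the 225 nt exon without RBFOXi replicate 1 and the first 93 nt exon without SCRM replicate 2 had too few skipping counts left and gave no value. As a plain share of counts, delta PSI of the first 93 nt exon was 0.000589. Replicate numbers are shared between the groups, but the labels do not say what they mark. Deviations of same-numbered libraries correlated at 0.0836 to 0.118 over the event types, from 2 pairs. With a replicate block, limma still called 0 RBFOX2 events, and delta PSI of the 40 nt exon was 0.0512 (limma, adjusted p = 0.921). Across all genes the number of called skipped exon events did depend on the setting. It was 27 as reported, 119 with the replicate block, 317 with Fisher's exact test, 52 with the quasi-binomial test, 44 with a filter of 1 count, 1 with a pseudocount of 0.1 and 40 with a pseudocount of 1. Leaving out 1 library gave 3 to 63. For mutually exclusive exons, where limma called 0, Fisher's test called 199, the replicate block 77, centred odds 5, a pseudocount of 1 gave 2, and leaving out 1 library gave 4 to 1431, the highest without SCRM replicate 2. For alternative 3′ sites, also at 0, Fisher's test called 20 and leaving out 1 library gave 0 to 16. UGCAUG beside the 7 cassette exons came to 7 copies in 300 nt and 8 in 500 nt, and the shorter GCAUG, which lies within it, to 12 in 300 nt. The skipped form limits the precision at the exons that are nearly always included.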

Other observations

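UGCAUG was also counted in the whole introns of RBFOX2. The intron between the 51 nt and 225 nt exons, of 128843 nt, held 42 copies, and the intron upstream of the 51 nt exon, of 89342 nt, held 33. The upstream intron of the first 93 nt exon, of 9675 nt, held 4 copies, and 3 of these lie in the last 300 nt.

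Of the glioma and mesenchymal markers looked up, VIM, CD44, FN1, TNC and NES have events with counts, while GFAP was not analysed here. VIM, an intermediate filament gene, had a median of 38900 to 81100 counts per skipped exon event over the libraries. The leukocyte marker CD74, which encodes the invariant chain of class II antigen presentation, had 23 events with a median of 2960 to 5250 counts, while PTPRC was not analysed here. Counts were lower for the neuronal marker MAP2, with a median of 30.5 to 78.5 per skipped exon event. The muscle markers MYH3 and DES had medians of 11.5 to 56 and of 6 to 18. The neuronal marker SYN1 had 1 event, without a median for skipped exon events.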
